A study of Homo sapiens with 12 samples.

Results

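Trimethylation of histone H3 at lysine 9 (H3K9me3) was examined where it stood alone among the marks mapped in KBM-7, a human chronic myeloid leukaemia line with a near-haploid genome. The regions were chosen by the deposited interval list itself. Intervals labelled H3K9me3 were joined where they overlapped or touched, and a region was kept when it overlapped no interval of any other named mark by 1 bp or more. This left 27270 of 71606 H3K9me3 regions (38.1%, Wilson 95% interval 37.7 to 38.4), out of 388975 joined regions of all named marks. They are called solitary H3K9me3 regions here, and the other 44336 H3K9me3 regions are called shared. Because overlap with another mark selected them, no overlap is reported as a result, and all intervals around shares cover counting error only. The label H3K9me3 matches none of the 12 samples of the series, and its cells, antibody, library and input are not stated in any source at hand. The samples are chromatin immunoprecipitations from KBM-7 cells for which no treatment is named, with 1 library for each mark, plus 3 inputs. The marks are H3K4me1, H3K4me2 and H3K4me3, the acetylations H3K9ac, H3K27ac and H4K16ac, the gene-body marks H3K36me3 and H3K79me2, and H3K27me3. With 1 set of intervals for each mark there was no replicate and no test, and every comparison is a description.

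H3K9me3 is laid down by the SUV39H and SETDB1 families of methyltransferases and read by HP1 proteins, which compact the chromatin. It is known for covering repeats beside the centromeres, transposable elements and the clustered zinc finger genes, and for silencing germline genes in somatic cells. H3K27me3, the other broad repressive mark, is written by the Polycomb complex PRC2, while H3K36me3 and H3K79me2 lie over transcribed gene bodies and H3K4me3 over active promoters.

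The promoters that solitary regions covered ranged from windows almost free of CpG to CpG-rich ones, and 3 are shown to make that range visible. Each is the RefSeq promoter window of GRCh38.p14, 250 bases before to 50 after a transcription start, with every CpG in capitals. CPA4, a secreted carboxypeptidase gene (chr7:130292911-130293210, plus strand), had 1 CpG. MAGEB10, a cancer-testis gene of the X chromosome (chrX:27807740-27808039, plus strand), had 14. PSMA8, the testis-specific proteasome subunit (chr18:26133619-26133918, plus strand), had 25.
CPA4: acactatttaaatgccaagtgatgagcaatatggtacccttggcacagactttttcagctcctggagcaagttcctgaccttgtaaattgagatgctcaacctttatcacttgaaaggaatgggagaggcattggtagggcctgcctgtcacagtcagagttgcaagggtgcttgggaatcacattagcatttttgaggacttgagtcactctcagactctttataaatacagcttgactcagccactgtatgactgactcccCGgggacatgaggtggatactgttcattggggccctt
MAGEB10: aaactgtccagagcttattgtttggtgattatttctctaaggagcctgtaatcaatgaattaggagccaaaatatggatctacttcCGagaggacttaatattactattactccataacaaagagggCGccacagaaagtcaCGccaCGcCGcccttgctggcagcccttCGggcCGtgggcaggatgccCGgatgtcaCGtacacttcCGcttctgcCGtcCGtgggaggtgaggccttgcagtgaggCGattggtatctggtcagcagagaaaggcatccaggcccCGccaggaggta
PSMA8: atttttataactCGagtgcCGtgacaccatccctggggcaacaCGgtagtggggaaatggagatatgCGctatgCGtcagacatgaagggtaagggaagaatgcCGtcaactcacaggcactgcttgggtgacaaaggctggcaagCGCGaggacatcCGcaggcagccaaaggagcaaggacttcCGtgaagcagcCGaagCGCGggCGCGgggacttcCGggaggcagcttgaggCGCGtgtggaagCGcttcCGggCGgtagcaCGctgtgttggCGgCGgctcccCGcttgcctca

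The zinc finger promoters of chromosome 19 under solitary regions were compared in sequence. Those of ZNF626 (chr19:20661522-20661821, minus strand) and ZNF66 (chr19:20776054-20776353, plus strand), neighbours on proximal 19p, are shown with their longest identical run, 45 bases, in capitals.
ZNF626: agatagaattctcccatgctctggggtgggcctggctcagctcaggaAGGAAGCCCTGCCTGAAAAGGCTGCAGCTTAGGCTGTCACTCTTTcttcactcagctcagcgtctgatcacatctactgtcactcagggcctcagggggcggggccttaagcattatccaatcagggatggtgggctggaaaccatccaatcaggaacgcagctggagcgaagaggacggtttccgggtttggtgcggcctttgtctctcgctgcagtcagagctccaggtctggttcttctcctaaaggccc
ZNF66: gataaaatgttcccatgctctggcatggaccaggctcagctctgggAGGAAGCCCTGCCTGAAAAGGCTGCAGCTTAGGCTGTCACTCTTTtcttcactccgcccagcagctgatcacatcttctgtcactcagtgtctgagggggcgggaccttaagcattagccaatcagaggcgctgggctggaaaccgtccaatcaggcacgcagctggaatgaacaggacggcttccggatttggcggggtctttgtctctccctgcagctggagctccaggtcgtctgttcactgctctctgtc
They had 8 and 9 CpG. Solitary regions covered the promoter windows of 14 zinc finger genes, 7 of them on chromosome 19. The windows of the other 7, and those outside solitary regions, were not aligned. Over the 21 pairs of the chromosome 19 windows, global alignment gave 74.1% to 83.0% identity (median 79.5%), and the longest identical run was 17 to 46 bases (median 26). Reads from near-identical copies can be shared between genes, and how such reads were placed is not stated in any source at hand.

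MicroRNA genes under solitary regions, looked at after the data were seen, included 2 known clusters. A 41-kb region, chr19:53778001-53819000, held MIR371A, MIR371B, MIR372 and MIR373, the cluster known for expression in human embryonic stem cells. A 6-kb region, chrX:145991001-145997000, held MIR892C, MIR890, MIR888 and MIR892A of a cluster known from the epididymis. The mature sequences that show how the genes of each cluster relate are given from RefSeq, with the seed (bases 2 to 8) in capitals.
hsa-miR-371a-3p: aAGUGCCGccaucuuuugagugu
hsa-miR-371b-3p: aAGUGCCCccacaguuugagugc
hsa-miR-372-3p: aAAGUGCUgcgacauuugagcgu
hsa-miR-373-3p: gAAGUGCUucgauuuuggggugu
hsa-miR-892a: cACUGUGUccuuucugcguag
hsa-miR-892c-3p: cACUGUUUccuuucugagugga
The miR-372-3p and miR-373-3p seeds were identical, and 12 human mature miRNAs in the table carried that seed. The miR-371a-3p and miR-371b-3p seeds differed from each other and from it. Of the 5p arms, which are not printed, those of miR-371b-5p and miR-373-5p shared a seed. Solitary regions wholly covered 55 of 1558 hairpins (3.53%, 2.72 to 4.57), and any H3K9me3 region covered 482 (30.9%). Of the sequence left after long unmarked stretches were set aside, solitary regions covered 5.18% and all H3K9me3 35.8%. Apart from these 2 clusters and a 15-kb region with the overlapping MIR4776-1 and MIR4776-2, each region that held a hairpin held 1.

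Solitary regions were many but narrow. They covered 147 Mb, which was 14.5% of all H3K9me3 sequence and 5.18% of the sequence left after 33 unmarked stretches of at least 1 Mb were set aside. Their median width was 3000 bp (quartiles 2000 and 6000), against 9000 bp (4000 and 21000) for shared regions. Of the solitary regions 14.5% were 1 kb wide, against 4.90% of shared ones. At least 20 kb was reached by 871 solitary regions (3.19%) and by 12099 shared ones (27.3%). A wide region meets another mark more easily, so the difference in width follows in part from the choice. All H3K9me3 starts and widths fell on a 1000-bp grid, so widths under 1 kb could not occur.

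**Figure D1:**
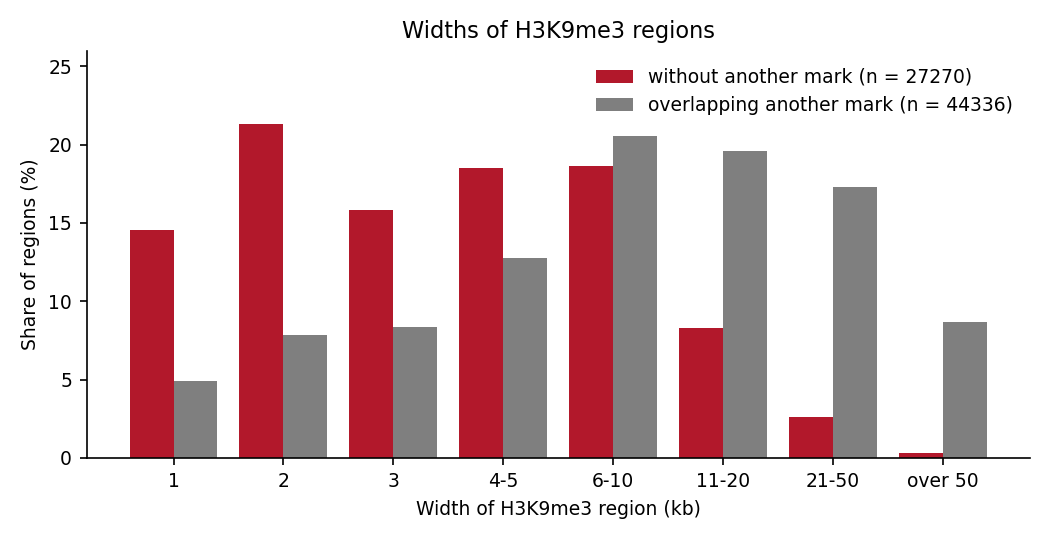
Share of regions (%, bars) by width in kb, for solitary regions (red, n = 27270) and shared regions (grey, n = 44336). Solitary regions peak at 2 kb, with 21.3% of regions against 7.84% of shared ones, and only 0.319% of them exceed 50 kb, against 8.67%.

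The values at the edge of the rule were close together. Among solitary regions, 422 touched another mark without overlap and 1573 lay within 500 bp of one. Among shared regions, 1354 had 500 bp or less in common with another mark, and 1220 were covered over less than 10% of their width. The mark that made most H3K9me3 regions shared was H3K27me3, which overlapped 34372 of them, 30395 of these with no mark besides. H3K36me3 overlapped 8499. The H3K36me3 and H4K16ac labels hold identical intervals and count as 1 set here, so these marks cannot be told apart. Of the H3K9me3 sequence, 32.9% lay under no other mark, and 43.9% of that lay in solitary regions. The remainder was made of the uncovered parts of shared regions.

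Most solitary regions lay well away from any other mark. The median gap to the nearest one was 11000 bp (quartiles 3500 and 37100), 5586 regions (20.5%) were more than 50 kb from any, and the longest gap was 2806500 bp. The nearest mark was H3K27me3 for 12963 regions (47.5%, 46.9 to 48.1), H3K4me2 for 7750 (28.4%) and H3K4me1 for 4772 (17.5%), the last 2 being marks of enhancers and promoters. H3K36me3 was nearest for 2331 regions (8.55%). H3K4me3 was nearest for 149 and H3K27ac, the mark of active enhancers, for 49. These counts also depend on how much each mark covered: H3K27me3 covered 914 Mb and H3K27ac 2.43 Mb.

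The marks around the regions follow in part from the choice, since 34372 of the shared regions overlap the broad mark H3K27me3, and the values are given as a description. Over all usable sequence H3K27me3 covered 32.1% and H3K36me3 8.51%. At 10 kb from the edge, H3K27me3 covered 9.57% of the sequence beside solitary regions and 46.6% beside shared ones. At 100 kb it covered 17.9% and 42.7%. H3K36me3 covered 2.90% and 9.07% at 10 kb, and 7.14% and 9.25% at 100 kb. H3K9me3 of any kind covered 22.4% beside solitary and 41.3% beside shared regions at 10 kb, and 35.8% of all usable sequence. Solitary regions covered 12.4% of the sequence 10 kb from another solitary region and 4.24% of that beside a shared one. The nearest H3K9me3 neighbour was itself solitary for 18488 of 27270 (67.8%, 67.2 to 68.3), while 38.1% of all H3K9me3 regions were.

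**Figure D2:**
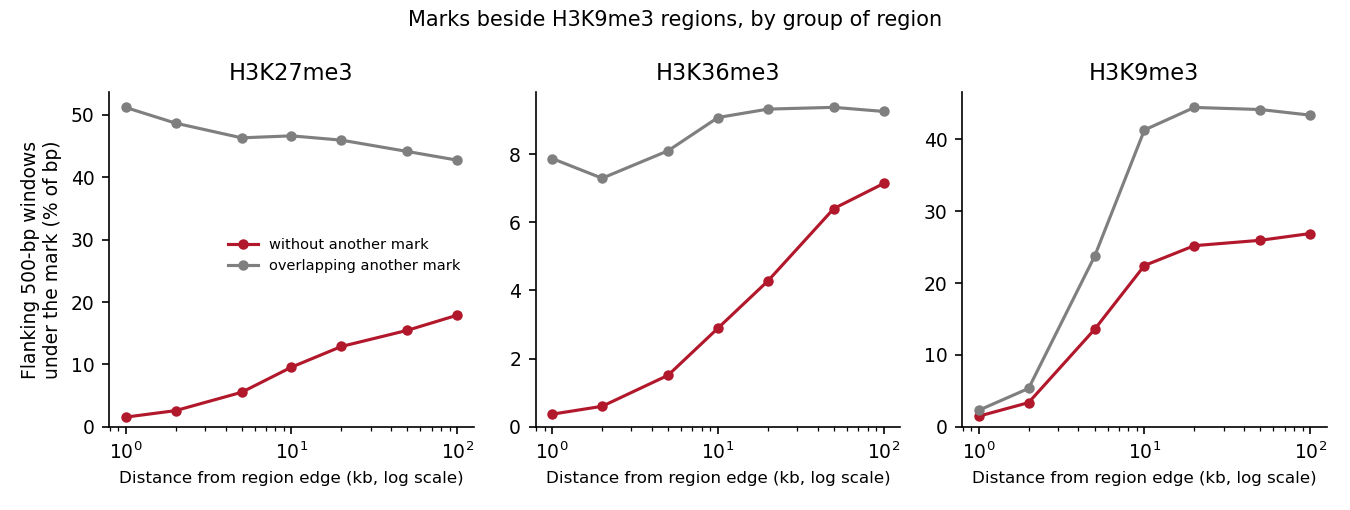
Share of bp (%) under H3K27me3, H3K36me3 and all H3K9me3 in 500-bp windows at 1 to 100 kb from the edge (log scale) of solitary regions (red) and shared regions (grey). For H3K27me3 the red points stay under the grey ones to 100 kb, with 17.9% against 42.7%.

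Solitary regions formed runs. Joined over gaps of up to 50 kb, 17098 of them (62.7%, 62.1 to 63.3) fell into 3276 clusters of at least 3, while 5394 (19.8%) had no such neighbour. The cluster with the most bp was chr16:34946001-36044000, where 45 regions covered 639 kb of 1098 kb without any protein-coding gene. Next came chr7:62507001-63235000 with 535 kb, also without protein-coding genes. The cluster at chr19:20498001-21074000 had 12 regions over 530 kb, 92.0% of its span, and held ZNF737, ZNF626, ZNF66, ZNF85 and ZNF430. The cluster at chr7:57132001-57509000 covered 326 kb and held ZNF479 and ZNF716, further zinc finger genes. In all 4, no bp of the span was under H3K27me3 or H3K36me3. The choice of regions fixes this for the covered part, which was 58.2%, 73.5%, 92.0% and 86.5% of the span.

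Solitary coverage was highest close to the longest unmarked stretches of the chromosomes. On each chromosome the longest stretch without any interval was taken. On most it lies at the centromere, and on chromosomes 13, 14, 15, 21 and 22 it runs from the first base. Within 1 Mb of these stretches solitary regions covered 15.6% of the sequence, at 1 to 2 Mb 7.82%, at 2 to 5 Mb 6.49% and beyond 20 Mb 4.78%. All H3K9me3 together covered between 33.6% and 36.2% in each of the 6 distance classes. The solitary share of H3K9me3 bp was 46.4% within 1 Mb and 13.2% beyond 20 Mb, and the mean width of a solitary region was 13.3 kb and 5.06 kb. Of the 89 solitary regions of at least 50 kb, 48 (53.9%, 43.6 to 63.9) had their midpoint within 5 Mb of such a stretch, against 1950 (7.15%) of all solitary regions. Of the same 89, 24 lay within 1 Mb, in 35.8 Mb of sequence, and 23 beyond 20 Mb, in 2051 Mb. The widest was chr11:50475001-50685000 with 210 kb, 0.1 Mb from one. Sequence beside centromeres is repetitive, and the share of it that reads could reach was not tested.

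Relative to length, X held the most among the 23 chromosomes. It carried 2049 solitary regions, 13.1 per Mb against 8.77 per Mb on the autosomes, and 7.50% of its sequence lay under them, against 5.04%. All H3K9me3 covered 32.5% of X, so that 23.1% of its H3K9me3 sequence was solitary. Chromosome 21 followed by share, with 7.43% of its sequence. Chromosomes 15 (2.63%) and 22 (2.64%) were lowest. Chromosome 19 was the most densely covered by H3K9me3, with 56.2% of its sequence, and yet only 3.91% was solitary. Within chromosome 15, the stretch from 61 to 90 Mb, known to be present in 2 copies in KBM-7, had 59.4% of its sequence under H3K9me3, against 18.3% in the rest of that chromosome. Its solitary share was 3.03%, against 2.42%. Chromosome 8, also known to be present in 2 copies, had 37.2% under H3K9me3 and 4.78% solitary, against 35.8% and 5.18% over all usable sequence. The part of copy number was not tested.

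**Figure D3:**
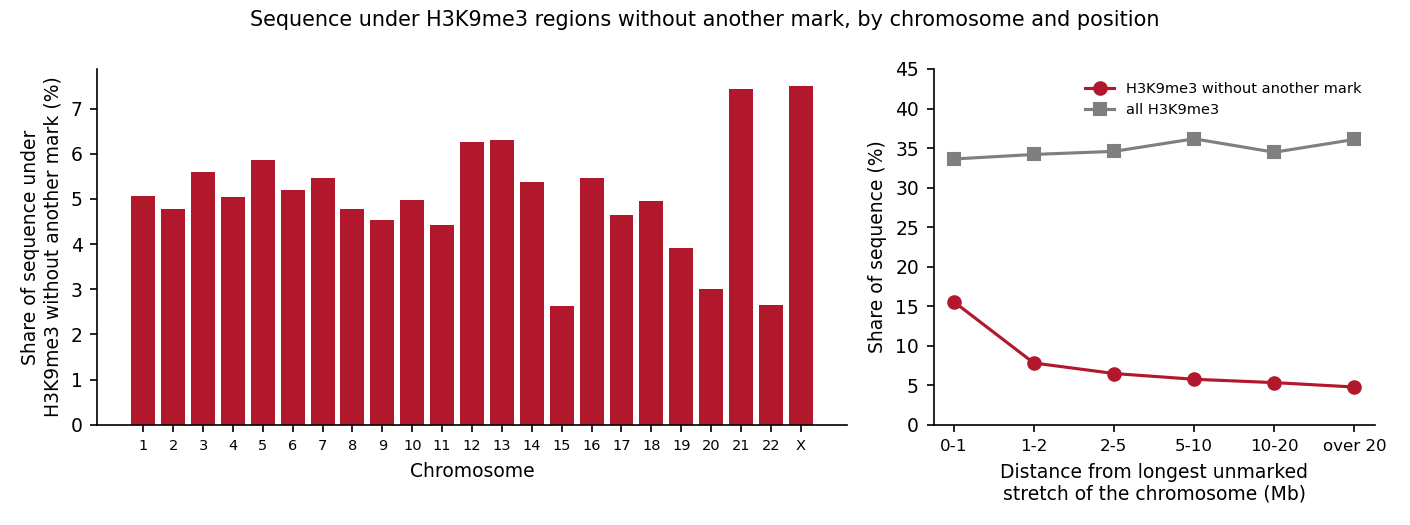
Left, share of sequence (%) under solitary H3K9me3 regions by chromosome; right, the same share (red) and that of all H3K9me3 (grey) by distance from the longest unmarked stretch (Mb). X and 21 stand highest at 7.50% and 7.43%, and the red line is at 15.6% within 1 Mb and at 4.78% beyond 20 Mb while the grey line lies between 33.6% and 36.2%.

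In bins of 1 Mb the median was 34 kb of solitary sequence and the maximum 581 kb, at 35 to 36 Mb of chromosome 16. Of 3021 full bins, 274 had none, and 174 of these held no H3K9me3 at all, bins inside the long unmarked stretches included. The 10 fullest included X:78000001-79000000 with 360 kb, which holds ATP7A, a copper transporter gene, and PGK1, a glycolytic enzyme gene. The bin at 20 to 21 Mb of chromosome 19 had 457 kb of solitary sequence within 927 kb of H3K9me3.

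Solitary regions lay outside genes more often than shared ones. A protein-coding gene was overlapped by 9169 (33.6%, 33.1 to 34.2), against 51.8% of shared regions. The share was 42.7% of those that overlapped H3K27me3 and 91.3% of those that overlapped H3K36me3. Wholly within such genes lay 31.2% of solitary regions, 40.1% of shared ones, 29.4% of those with H3K27me3 and 81.4% of those with H3K36me3. Shared regions were wider, and a wide region meets a gene more easily. By bp, 32.7% of solitary sequence lay in protein-coding genes, against 40.3% of shared sequence and 44.2% of all usable sequence. A gene end was within 1 kb of 1029 (3.77%, 3.55 to 4.01), against 14.9% of shared regions. By bp the share at gene ends was 1.13% against 2.03%, and 2.54% of all usable sequence lay there. The 18101 regions outside protein-coding genes had a median distance of 143 kb to the nearest, and 3717 (20.5%) were more than 500 kb away. H3K36me3 and H3K4me3 lie in genes, so a choice that removes them removes regions in genes.

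Of 19970 protein-coding genes, 3566 (17.9%) held at least 1 solitary region. The share moved with gene length: it was 5.31% of genes under 10 kb and 71.5% of those of at least 200 kb, and genes with such a region had a median length of 105 kb, against 18.9 kb for the others. Over all gene spans 3.82% of bp were solitary H3K9me3, against 31.8% under any H3K9me3. The span share ranged less with length, from 1.99% at 10 to 50 kb to 4.85% at 200 kb or more. Genes were also grouped by promoter mark, which the choice of regions uses as well, so the order of the groups is a description that the choice partly fixes. Those with neither H3K4me3 nor H3K27me3 at a promoter window (4580 genes) had 6.82% of their span solitary, those with H3K4me3 alone (7301) 3.43%, and those with H3K27me3 alone (3668) 2.59%, although 50.2% of the span of the last group lay under H3K9me3. Genes with both marks (262), with a median length of 86.2 kb, had 5.17% of their span solitary, and 36.6% of them held a solitary region.

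The genes with the most solitary sequence were long. RAD51B, a gene of homologous recombination, held 25 regions that covered 319 kb, 37.0% of its 863318 bp. GRM7, a metabotropic glutamate receptor of neurons, held 33 regions and 267 kb, and KIF26B, an atypical kinesin, 20 regions and 266 kb, or 48.1% of its span. CALN1 followed with 253 kb, DLG2, a synaptic scaffold, with 245 kb, and STK32B, a kinase, with 231 kb or 48.0% of its span. FGF13 held 215 kb, SNX29 201 kb and PRKCA, protein kinase C alpha, 194 kb. In RAD51B, H3K9me3 of any kind covered 38.7%, so nearly all of it was solitary. In CALN1 it covered 74.3%, of which the smaller part was solitary.

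Of the genes of at least 5 kb, 142 of 16810 were solitary over at least 50% of their span and 24 over all of it. The 10 longest of these were the zinc finger genes ZNF430, ZNF257, ZNF737, ZNF85 and ZNF716, CPA4, PLA2G12B, a secreted phospholipase-like gene, the olfactory receptor OR4K1, MAGEB10, and RHOXF1, a homeobox gene of the germ line. ZNF430 was covered over 39394 bp and RHOXF1 over 11388 bp, each by 1 region.

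Zinc finger genes, whose repressor proteins bind transposable elements, were covered by H3K9me3 nearly throughout on chromosome 19, mostly in regions that overlapped another mark. Of these 258 genes, 9 (3.49%) held a solitary region, against 17.9% of all protein-coding genes. Their median length was 23.2 kb, and the share over all genes of 10 to 50 kb was 9.52%. Of their span 3.72% was solitary, against 3.82% over all genes, while H3K9me3 covered 96.1% of it, against 31.8%. H3K36me3 lay over 43.7% of that span and H3K27me3 over 30.6%. In 245 of the 258, H3K9me3 covered at least 50% of the gene, 184 held H3K36me3 and 163 H3K4me3. The solitary ones were close to each other, a stretch looked at after their values were seen: 8 of the 9 lay among the 23 zinc finger genes between 20 and 23 Mb. From ZNF737 to ZNF430, 5 genes in a row were solitary over 88.0% to 100% of their span, with no H3K36me3, H3K27me3, H3K79me2 or H3K4me3, which the choice of regions fixes for the covered part. ZNF431, ZNF708, ZNF738, ZNF493, ZNF429 and ZNF100, next along the chromosome after ZNF714, were also under H3K9me3 over 100% of their span. They also carried H3K36me3 over 69.9% to 97.6% of the span, H3K27me3 over 12.8% to 81.5%, H3K79me2 over 2.14% to 25.1% and H3K4me3 over 1.13% to 2.88%. ZNF714, between the groups, was wholly under H3K9me3 and carried no H3K36me3, H3K27me3, H3K79me2 or H3K4me3. Its H3K9me3 was shared all the same, and which other mark it met, and where, was not looked up. ZNF257 and ZNF676, farther along, were solitary over 100% and 62.7%.

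**Figure D4:**
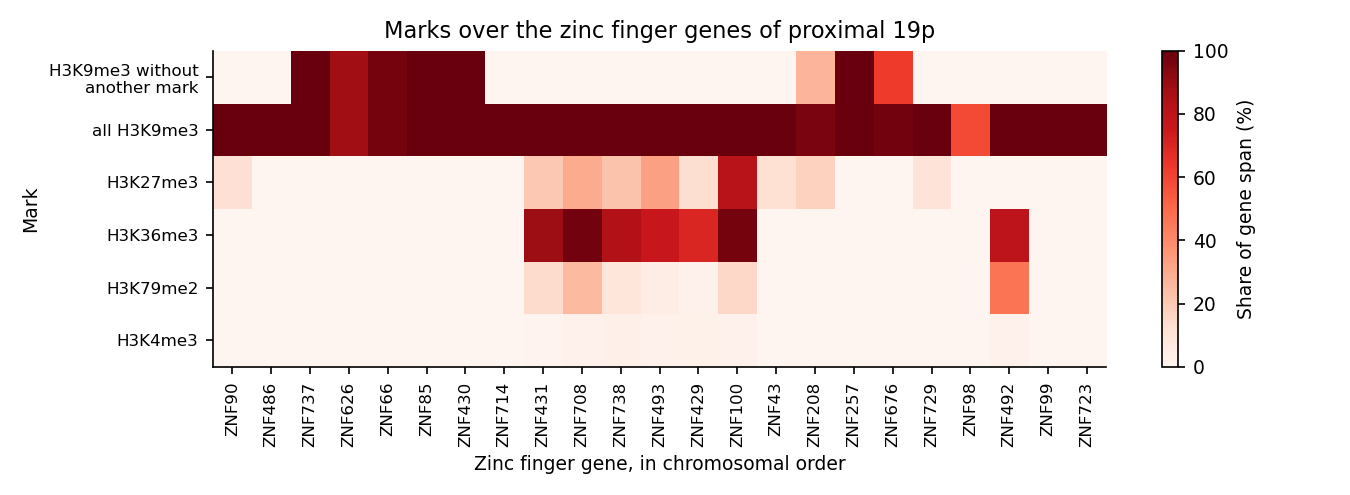
Share of each gene's span (%, colour) under solitary H3K9me3, all H3K9me3 and 4 other marks for the 23 zinc finger genes between 20 and 23 Mb of chromosome 19, in chromosomal order. H3K9me3 fills nearly all columns; the solitary genes from ZNF737 to ZNF430 stand in a row, as do those with H3K36me3 and H3K27me3 from ZNF431 to ZNF100, and by the choice of regions no bp can be in both.

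Other families of tissue-restricted genes held solitary regions at varied shares, beside 17.9% of all protein-coding genes and 3.82% of their span. The share of genes is better read by length: it was 5.31% under 10 kb, 9.52% at 10 to 50 kb and 30.9% at 50 to 200 kb. Median lengths were 7.00 kb for cancer-testis genes, 2.94 kb for olfactory receptors and 110 kb for clustered protocadherins. Cancer-testis families, whose expression is normally limited to germ cells, had them in 13 of 110 genes (11.8%), with 5.83% of their span solitary. Of their H3K9me3 sequence 24.3% was solitary, against 14.5% of all H3K9me3 sequence and 23.1% of that on X, where all 13 of these genes lie. MAGEB10 was covered over 100%, SPANXN2 over 79.6%, SPANXN4 over 62.9% and MAGEC3 over 14.6%. Olfactory receptors held them in 43 of 392 (10.97% of genes and 4.67% of span), 25 of these genes being covered over at least 50%. OR4K1 and OR2AJ1 were covered whole. Glutamate and GABA receptor genes held them in 23 of 47 (48.9%), with 4.22% of their span. Their median length was 146 kb, and GRM7 alone held 267 kb. The 53 clustered protocadherins, adhesion proteins of neurons, counted 19 (35.8%) with a solitary region, but the PCDHG genes share exons and the same 20-kb region, so PCDHGA1, PCDHGA10, PCDHGA11 and PCDHGA12 each show 20000 bp.

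Lists of enzymes, transporters and structural genes lay near or under the value of 3.82% for all genes. Cytochrome P450 genes held solitary regions in 9 of 56 (3.42% of span), with CYP2C8 at 29.0%. Solute carriers held them in 70 of 386 (3.20%), with SLC39A11, a zinc transporter, at 125000 bp. Collagens counted 16 of 44 (3.33%), with COL15A1 at 36.3%, cadherins 8 of 23 (2.84%), with CDH8 at 12.3%, and UGT and SULT enzymes 8 of 32 (2.64%), with SULT1B1 at 25.3%. Potassium channels counted 22 of 95 (2.52%). KCNQ1, a channel of the heart inside an imprinted domain, held 71000 bp, and KCNG3 was covered over 25.6%. Serpins held them in 3 of 34 (1.95%): SERPINC1, which encodes antithrombin, was covered over 73.9%, SERPINF2 over 24.2% and SERPINB8 over 4.02%. The 3 keratin and keratin-associated genes of 149 (0.391% of span) were KRT86, KRTAP5-9 and KRTAP19-2. None of 25 bitter taste receptors (0 to 13.3%) and none of 45 defensins (0 to 7.87%) held one. Their median lengths were 1.075 and 3.915 kb, and 5.31% of all genes under 10 kb held one. H3K9me3 covered 77.7% of the taste receptor span and 43.1% of the defensin span.

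Lists of the basic cell machinery mostly hold short genes, and the share of genes with a solitary region was 5.31% under 10 kb and 9.52% at 10 to 50 kb. Ribosomal protein genes, with a median length of 5.04 kb, held 1 in 85 (1.18%, 0.208 to 6.37), RPL10L, a copy of RPL10 expressed in testis, covered over 100%. Proteasome subunits, with a median of 13.6 kb, held them in 3 of 48 (6.25%, 2.15 to 16.8). In PSMA8 the region lay at the start of the gene (1132 bp), PSMA1 held 14000 bp of its span, and PSMD5, an assembly chaperone of the proteasome, was covered over 47.9%, promoter included. Of 23 genes for enzymes and readers of H3K9 methylation, KDM4C, a demethylase of this mark, was the only one, with 6000 bp or 1.32% of its span. These 23 genes were longer, with a median of 49.2 kb, and 30.9% of all genes of 50 to 200 kb held a region. HOX genes, a classic Polycomb target, held them in 3 of 39: HOXA3 with 11991 bp, HOXA2 over 72.2% and HOXB3 over 9.67%. The interferon gene IFNW1 was covered whole, the only one of 14.

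Histone genes had 7.47% of their span solitary and held a region in 10 of 73 genes (13.7%). All 10 lay in the histone cluster on the short arm of chromosome 6. H1-1 was covered over 100% of its 756 bp and H3C7 over 100% of its 494 bp, H3C6 over 85.6% and H2BC5 over 22.7%. Of their H3K9me3 sequence 42.2% was solitary, the remainder being shared. H3K4me3 lay at a promoter window of 18 histone genes, and H2BC5 alone of the 10 carried it on its span, over 1650 bp. None of the 10 counted once regions with another mark closer than 5 kb were also left out. Many histone genes resemble each other in sequence, and whether reads could be assigned to 1 of them was not tested.

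**Figure D5:**
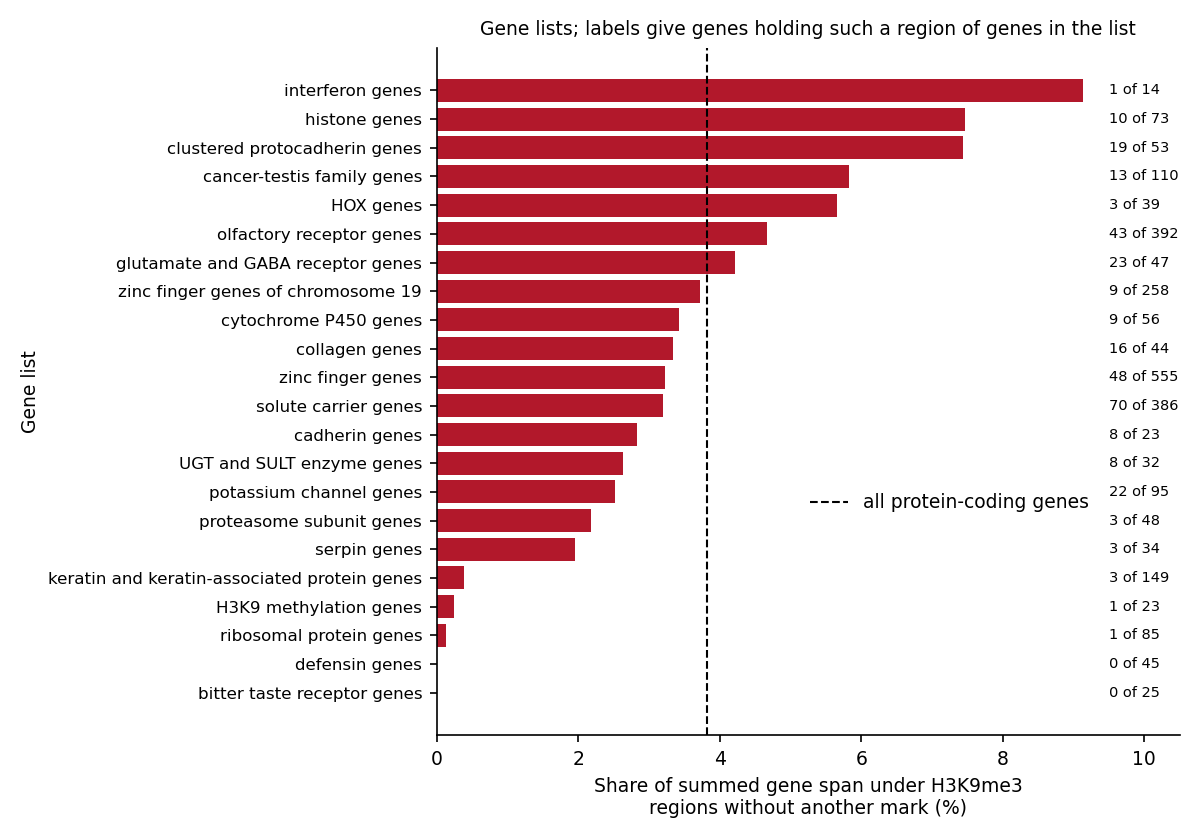
Share of summed gene span (%, bars) under solitary H3K9me3 regions for 22 gene lists; the dashed line is the 3.82% of all protein-coding genes, and the counts are genes with such a region of genes in the list. Interferon, histone and protocadherin genes reach the highest shares, with 1 of 14, 10 of 73 and 19 of 53 genes. Spans are summed gene by gene, so a 20-kb region shared by PCDHG genes is counted again for each of them.

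Promoters were seldom under solitary regions. Of 15811 protein-coding genes with a RefSeq window, 336 (2.13%) had at least 1 window wholly covered. These 395 windows had a median of 9 CpG (quartiles 3 and 20), against 10 in windows under shared regions, 29 in windows with H3K4me3 and 21 in all 22131 windows. Their median GC content was 55.3%, against 62.3% in all. At least 20 CpG were found in 25.6% of them, against 52.9% of all windows, and 5 or fewer in 39.0%, against 21.4%. Windows of long noncoding RNA genes were covered more often, 505 of 12829 (3.94%), against 1.78% of protein-coding windows. They also lay more often under shared regions, 34.4% against 20.4%. By list the count was 9 of 67 histone genes, 7 of 93 cancer-testis genes (each a MAGEB or MAGEC gene), 13 of 314 olfactory receptors, 14 of 468 zinc finger genes, 2 of 20 HOX genes and 0 of 68 ribosomal protein genes.

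Among the 336 genes, several of the germ line and of early development were picked out after their values were seen, and they stand for no list. The single promoter windows of NANOG and DPPA3, factors of pluripotent cells, were covered and had 5 and 6 CpG. PRDM9, the methyltransferase that places meiotic breaks, had a covered window with 17 CpG, and SYCE1, of the synaptonemal complex, had 2 of 2 covered, with 27 and 32. IHO1 and MEIKIN, further meiotic genes, were covered at 2 of 2 and 1 of 1. Of sperm genes, PRM2 and TNP2, which package sperm DNA, were covered over 100% of their spans, PGK2 over 1285 of its 1626 bp and PLCZ1, the sperm phospholipase, at 2 of 2 windows. SNRPN and SNURF, imprinted genes expressed from the paternal copy, share a covered window with 18 CpG, and SNRPN was covered at 2 of 4. FOXP3, of regulatory T cells, and CD247, of the T cell receptor complex, were covered at 1 of 1, ZAP70 and THEMIS at 1 of 3. ERG, a transcription factor of blood stem cells, was covered at 1 of 4. The covered window had 4 CpG, the uncovered upstream one 53 and the other uncovered ones 4 each. The ERG span carried 7800 bp of H3K4me3, with H3K36me3 over 27.2% and H3K79me2 over 24.8%. CD247 also carried H3K4me3 on its span, over 600 bp.

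The cell type was checked on the marks of the series. H3K4me3 lay on 7 of 8 progenitor and myeloid genes (CD34, CD33, SPI1, MYB, GATA2, RUNX1 and LMO2) and on 2 of 9 genes of other cell types, among them KRT8, an epithelial keratin, with 910 bp. The exception, KIT, a receptor of blood progenitors, carried no H3K4me3 and held 3 solitary regions of 28000 bp in all. Its promoter window, with 38 CpG, was not covered. Of the genes of other types, COL1A1 held 4000 bp and NCAM1 1000 bp of solitary H3K9me3, and 85.0% of NCAM1 lay under H3K27me3. These values check the named samples and say nothing on the cells behind the H3K9me3 label.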

How the data were processed

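The authors deposited 1 list of called intervals, giving position and mark name, and no count, score or signal; the positions are in base pairs. Per the submitters' processing notes the build was GRCh38 and the tools included MACS, Bowtie2 and cutadapt. Versions, thresholds, roles and the input of each call are not stated in any source at hand, so depth and its precision are unknown. Starts counted from 1 were told from those counted from 0 by a 50-bp grid and shifted. Chromosomes 1 to 22 and X were used. Genes, miRNAs and promoter windows came from RefSeq tables of GRCh38.p14, matched by position and gene ID. Gene lists were matched by symbol pattern.

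The members and lists were chosen with earlier results of these data known. Genes are named by rule: per list up to 4 with the most solitary bp, and all where 4 or fewer held a region; the 10 genes with the most bp; the 10 of at least 5 kb with the largest share; those in the 10 widest regions, fullest 1-Mb bins and clusters. A few genes that the rule names are not reported here. Others are said to be picked after their values were seen. Unmarked-stretch distances, promoter windows and miRNA hairpins were added after the data were seen, as was leaving out H3K36me3 and H4K16ac. The base composition of the regions was not computed, as no genome was used. Interval functions were tested on simulated data. Python 3.11.15, numpy 2.4.6, pandas 2.3.3, SciPy 1.17.1, Biopython 1.88 and matplotlib 3.10.9 were used.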

Additional observations from a re-analysis of the deposited data

How the results depend on the processing

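All values here describe 1 set of intervals for each mark. No paired analysis was possible because each mark has 1 library, and no replicate could be left out. Depth is unknown, so the reach of each set could not be judged. Of the main results compared with an alternative, 50 kept their value and 56 moved, by over 1.5 times for counts, widths and shares of sequence or beyond the 95% interval for other shares. H3K9me3 intervals taken as deposited gave every value again, since none overlap or touch, and joining them over gaps of up to 1 kb moved none of the main results. Shares below are named as gene share (solitary regions in a protein-coding gene), end share (within 1 kb of a gene end), gene count (protein-coding genes with a solitary region), nearest share (H3K27me3 nearest), cluster share (in clusters of 3 or more), X share and promoter count (genes with a covered window).

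With regions closer than 1 kb to another mark also left out, the gene share was 33.0%, the end share 3.27%, the gene count 16.1%, the nearest share 49.6% and the cluster share 60.6%. With 5 kb these were 30.8%, 2.57%, 11.2%, 55.2% and 56.2%, the X share was 8.51% and the promoter count 194. With another mark required to cover 10% of a region, the end share was 4.26%, the gene count 18.8%, the nearest share 46.3%, the cluster share 64.9% and 23 histone genes held a region. With 50%, the solitary width was 269 Mb, the gene share 37.2%, the end share 6.11%, the gene count 25.1%, the nearest share 48.4%, the cluster share 70.7%, the promoter count 814 and the coverage within 1 Mb of an unmarked stretch 26.4%, and 118 zinc finger genes of chromosome 19 held a region, against 9. Regions of at least the median width of all H3K9me3 regions numbered 8137, covered 96.6 Mb and had a median width of 9000 bp, a gene share of 36.4%, an end share of 6.05%, a gene count of 8.70%, a nearest share of 39.97%, a cluster share of 33.7% and a promoter count of 204.

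Not counting H3K27me3 as another mark gave 57665 regions of 723 Mb with a median width of 6000 bp, a gene share of 36.8%, an end share of 7.77%, a gene count of 34.6%, an X share of 6.79%, a cluster share of 87.3%, a promoter count of 2111 and 26.3% coverage within 1 Mb of an unmarked stretch; 197 olfactory receptor and 43 cancer-testis genes then held one. Not counting H3K36me3 and H4K16ac, a choice made after seeing the data, gave a gene share of 43.5%, an end share of 4.67%, a gene count of 27.5%, an X share of 7.03% and a cluster share of 67.9%. The cause of these moves beyond the change in the set was not tested.

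Genes of every biotype gave a gene share of 53.5%, and at least 50% of the region inside the gene gave 32.4%. End windows of 2.5 and 5 kb gave 5.87% and 9.39%. At least 10% of the gene span covered gave a gene count of 7.43%. With chromosome 8 and positions 61 to 90 Mb of chromosome 15 left out, the X share was 7.95%, against 7.51%. Cluster gaps of 25 and 100 kb gave 40.9% and 82.0%.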
